A study of Mus musculus with 4 samples.

Results

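The genes described here encode chaperones and the folding machinery of the endoplasmic reticulum (ER), followed as transcripts in Il10-EGFP− and Il10-EGFP+ T cells. The members were taken from a list of 51 symbols, and the 50 that appear in the table of rlog values (regularised log2 counts) were described with their raw counts. These are 50 of the 9546 genes of that table, and they comprise 30 ER genes and 20 cytosolic genes. The remaining symbol, Hspa1a, which encodes a stress-inducible HSP70, had 0 counts in every library, where a count of 0 allows up to 3 counts, or 4.07 to 4.75 CPM (counts scaled to a library of fixed size).

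The samples were CD4+ T cells from the spleens of Tg4 Nr4a3-Tocky Il10-GFP mice, harvested 24 h after 1 subcutaneous dose of 4 mg/kg [4Y]-MBP in PBS. Tg4 is a transgenic T cell receptor that recognises a myelin basic protein peptide, Nr4a3-Tocky is a fluorescent Timer protein driven by Nr4a3 and so by T cell receptor signals, and the green reporter marks transcription of Il10. Cells of both groups carried all 3 transgenes, received the peptide and were sorted as Timer+, so no unstimulated T cells were included. The groups differed in the sort gate for Il10-EGFP, with 2 libraries each of Il10-EGFP− and Il10-EGFP+ cells, labelled as biological replicates. The methods name mice of both sexes, and the labels give no age. The comparison asks how T cells that had started to transcribe Il10 differ from activated cells that had not. Another pair of replicates, which the methods say was dropped after principal component analysis, was not analysed here.

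Proteins that enter the ER through the Sec61 channel are bound by the HSP70 chaperone BiP (Hspa5) and the HSP90 chaperone GRP94 (Hsp90b1), have their glycans monitored by the lectins calnexin and calreticulin, and gain disulfide bonds from protein disulfide isomerases. When unfolded protein accumulates, the sensors of the unfolded protein response raise transcription of many of these genes through the factors XBP1 and ATF6, and ER-associated degradation (ERAD) removes what cannot be folded. In the cytosol, HSP70 with its DNAJ partners and HSP90 with its cofactors handle many clients, while the ring-shaped CCT complex folds actin and tubulin, and HSF1 is the transcription factor of the heat shock response. Activated T cells enlarge their synthetic machinery as they grow and divide, and cells that secrete large amounts of protein carry an expanded ER.

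Hsp90b1 and Hspa5 are textbook targets of the unfolded protein response. Their promoters are shown first because Hsp90b1 is the 1 ER member called in edgeR's test below (not by DESeq2) and Hspa5, which was called by neither, is the most abundant ER member. Each window comprises the 250 bases before and the 50 after the RefSeq start site on GRCm38.p6, on the strand of the gene. The capitals mark each match to the ER stress element, searched as CCAAT, any 9 bases and CCACG on either strand. The left part of this element is bound by NF-Y and the right part by ATF6 or XBP1. Hsp90b1 (chr10:86705395-86705694, minus strand) has a match that begins 212 bases and another that begins 107 bases upstream of the start, the latter in reverse orientation. Hspa5 (chr2:34771840-34772139, plus strand) has a match 65 bases upstream.
Hsp90b1: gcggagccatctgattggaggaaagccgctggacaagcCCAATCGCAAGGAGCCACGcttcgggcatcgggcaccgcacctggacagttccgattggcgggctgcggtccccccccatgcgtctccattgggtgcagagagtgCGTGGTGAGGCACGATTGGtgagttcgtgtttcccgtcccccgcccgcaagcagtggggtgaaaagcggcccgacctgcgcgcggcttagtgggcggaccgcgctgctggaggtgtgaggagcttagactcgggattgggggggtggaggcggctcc
Hspa5: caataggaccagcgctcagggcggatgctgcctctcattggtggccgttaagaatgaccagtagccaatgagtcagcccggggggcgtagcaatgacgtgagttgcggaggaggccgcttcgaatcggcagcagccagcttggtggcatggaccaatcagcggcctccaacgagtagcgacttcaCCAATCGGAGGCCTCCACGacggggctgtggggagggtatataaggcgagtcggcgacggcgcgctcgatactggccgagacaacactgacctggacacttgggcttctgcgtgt

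Such a match stood in 39 of the 32851 promoter windows of the table (0.119%) and in 7 of the 25 ER members that have a window there (28.0%). The windows of Hyou1, Manf, Sec61a1, Sec11c and Ssr2 were not in the table. No match was found in the 21 windows of the 15 cytosolic members that have one, and Cct4, Hsp90aa1, Hsp90ab1, Hspa8 and Hsf1 had none in the table. CCAAT alone, which lies within the element, stood in 37.4% of all windows, in 80.0% of those of the ER members and in 57.1% of those of the cytosolic members. The heat shock element, searched as GAA, any 2 bases, TTC, any 2 bases and GAA, or its reverse complement, stood in 0.603% of all windows, in 0 of the 25 ER members and in 1 of the 15 cytosolic members, Hsph1. The matches of the other 5 ER genes are given with 5 bases on each side, and the capitals mark the outer parts of the element.
Calr (chr8:84847070-84847098, minus strand): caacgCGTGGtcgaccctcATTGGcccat
Canx (chr11:50325795-50325823, minus strand): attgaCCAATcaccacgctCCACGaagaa
Creld2 (chr15:88819515-88819543, plus strand): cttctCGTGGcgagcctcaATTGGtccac
Dnajc3 (chr14:118937822-118937850, plus strand): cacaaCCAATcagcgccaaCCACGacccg
Pdia6 (chr12:17266486-17266514, plus strand): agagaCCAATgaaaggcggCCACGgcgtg
A match describes the letters of the window and does not show binding.

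Libraries were made with QuantSeq 3′ FWD, which reads the end of each polyadenylated transcript, so a count does not grow with transcript length and levels of different genes are given without division by length. The 4 libraries held 644679 to 730330 counts. CPM are scaled by the trimmed mean of M-values (TMM). A log2 fold change is positive where the transcript was higher in Il10-EGFP+ cells, and a gene was called where edgeR's quasi-likelihood test over 9608 genes gave it an adjusted p under 0.05. This test called 393 genes (4.09%), of which 226 (2.35%) were higher and 167 (1.74%) lower in Il10-EGFP+ cells. An unadjusted p under 0.05 in this test was seen for 1485 of the 9608 genes. Il10 had 0 and 0 counts in the Il10-EGFP− against 29 and 41 in the Il10-EGFP+ libraries. The summed level of 12 CD4+ T cell markers was 4499 and 4207 CPM in the Il10-EGFP− against 5266 and 4878 CPM in the Il10-EGFP+ libraries. Of these markers 1 was called, higher in Il10-EGFP+ cells. The sum of 7 CD8 or NK cell markers was between 33.27 and 56.9 CPM.

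Markers of other cell types moved with the groups. Plasma cell markers summed to 133.0 and 183.9 CPM in Il10-EGFP− and to 518.1 and 607.3 CPM in Il10-EGFP+ libraries, and 6 of the 10 tested genes of the 18 listed were called, all higher. Among them Igkc had 6, 18, 81 and 116 counts and Jchain 0, 0, 15 and 16, whereas Ighg1 and Eaf2 were at 0 in every library, Sdc1 had at most 3 counts and Tnfrsf17 at most 1. The 10 B cell markers summed to 27.15 and 27.72 against 71.3 and 69.25 CPM, with Cd22 called among the 6 tested. The 15 myeloid markers summed to 137.1 and 167.8 against 494.4 and 271.2 CPM, with S100a8, H2-Aa and Lyz2 called among the 11 tested and Adgre1 and Cd14 at 0 throughout. The 8 erythroid and platelet markers summed to 160.2 and 143.0 against 274.2 and 206.3 CPM, with 0 of the 4 tested called by edgeR or by DESeq2 and 2 at an unadjusted p under 0.05. Of 18 genes of the G2 and M phases, 13 were called higher, and their sum was 3180 and 2953 against 6263 and 6070 CPM. Plasma cells carry much ER, and the part of these markers in the results below was not tested. In sorted bulk samples such as these, fewer cells with a transcript and less transcript per cell cannot be told apart.

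All 50 members passed the filter of at least 10 counts in total, and 3 were called (6.0%, against 4.09% of all genes tested). Hsp90b1 was higher in Il10-EGFP+ T cells, while Cct3, a CCT subunit, and Dnaja1, a DNAJ partner of cytosolic HSP70, were lower. On the deposited rlog scale their differences between the group means were 0.38, -0.39 and -0.44. The ER members had a median log2 fold change of 0.06, with 18 above 0 and 12 below, and the cytosolic members had a median of -0.19, with 2 above 0 and 18 below, whereas the median over all genes tested was 0.0. With library size alone as the scaling, 17 of the 30 ER members were above 0 and 19 of the 20 cytosolic members below. Without Il10-EGFP+ replicate 1, 14 of the cytosolic members were below 0, and without Il10-EGFP+ replicate 2, 22 of the ER members were above 0. The CPM of the Il10-EGFP+ libraries were both above those of the Il10-EGFP− libraries for 8 of the 30 ER members and for 0 of the 20 cytosolic members, where 22.3% of all genes tested were separated in this direction. They were both below for 2 ER members and for 9 cytosolic members, where 22.3% of all genes were. For 42 of the 50 members the 95% interval of the log2 fold change lay within 2-fold in either direction.

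**Figure D1:**
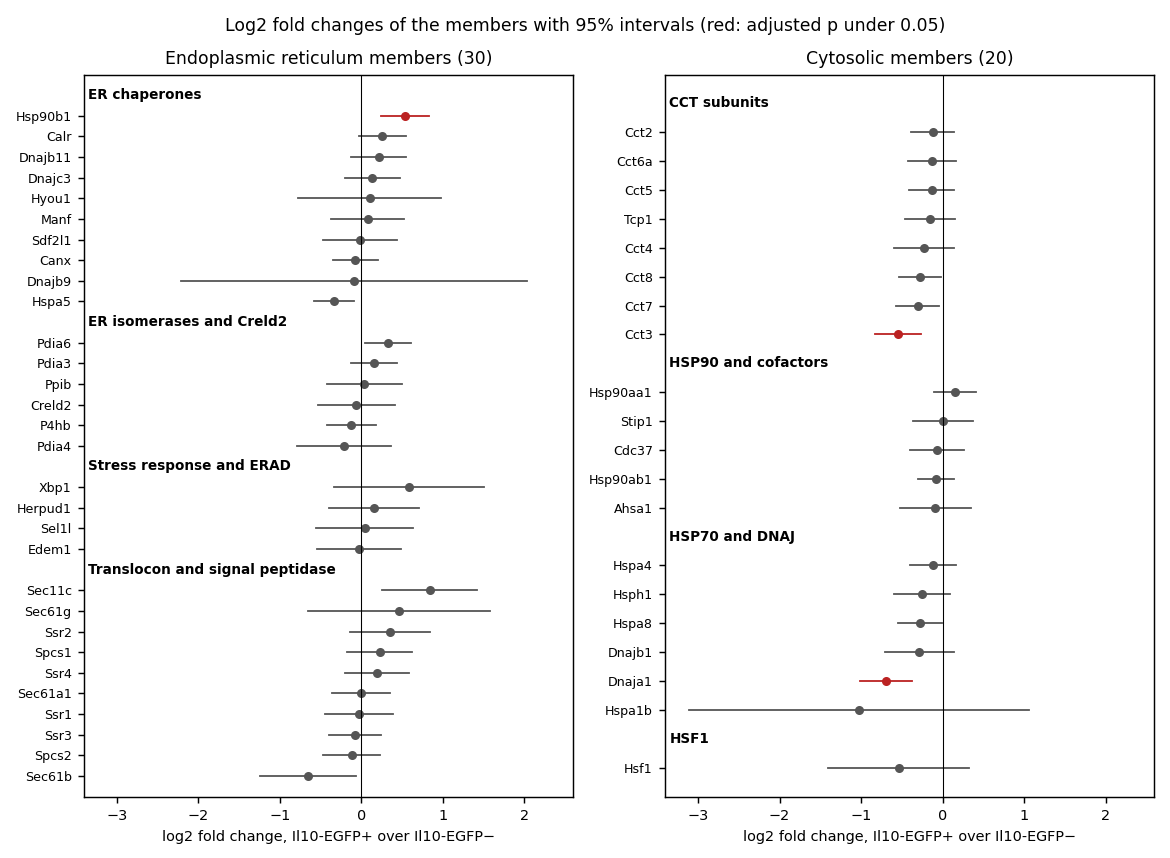
Log2 fold change of each member (Il10-EGFP+ over Il10-EGFP−, x axis) with its 95% interval, ER members on the left and cytosolic members on the right, ordered within each role. The points in red are the 3 called genes, of which Hsp90b1 lies to the right of 0 and Cct3 and Dnaja1 to the left, and the widest intervals belong to Dnajb9 and Hspa1b.

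The ER members together took 0.6534% and 0.7355% of the counts in the Il10-EGFP− against 0.6738% and 0.7155% in Il10-EGFP+ libraries. In CPM these sums were 6478 and 7369 against 6883 and 7228. The sums of the groups overlap. Cytosolic members took more, with 1.63% and 1.757% of the counts in the Il10-EGFP− against 1.389% and 1.65% in Il10-EGFP+ libraries, and these also overlap. The counts of ER members per 100 counts of cytosolic members were 40.09 and 41.86 in the Il10-EGFP− against 48.51 and 43.37 in Il10-EGFP+ libraries, which do not overlap. A single gene, Hsp90ab1, weighs heavily in the cytosolic sum, with 5728 and 5795 counts in the Il10-EGFP− against 4399 and 5815 in the Il10-EGFP+ libraries. The ratio of ER to cytosolic counts and the other ratios below were chosen after the values were seen and are descriptions. With 2 libraries against 2, an exact two-sided permutation test cannot give a p below 0.333.

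Among the 10 chaperones of the ER lumen and membrane, 1 was called. Hsp90b1, which encodes GRP94, a chaperone of integrins and Toll-like receptors, had 230 and 253 counts in the Il10-EGFP− against 286 and 371 in the Il10-EGFP+ libraries. Its CPM were 312.2 and 369.1 against 453.2 and 535.2, so that the groups do not overlap. The mean rose from 340.7 ± 40.3 to 494.2 ± 58.0 CPM (SD, n = 2 each), 1.45-fold, with a log2 fold change of 0.54 and a standard error of 0.15 (adjusted p = 0.0221, edgeR). The gene (ENSMUSG00000020048) lies on GRCm38 chr10:86690209-86705509, minus strand. The call was lost without Il10-EGFP− replicate 1 (adjusted p = 0.241) and without Il10-EGFP+ replicate 2 (adjusted p = 0.295). DESeq2 gave an adjusted p of 0.111, and the alternatives without a replicate block lay between 0.00966 and 0.295. An antisense pseudogene that shares exon bases with Hsp90b1, 1810014B01Rik, had 1 to 3 counts.

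Hspa5, which encodes BiP, the main HSP70 of the ER and the repressor of the stress sensors at rest, was the most abundant ER member and had the lowest log2 fold change among the chaperones. It had 1146 and 1270 counts in the Il10-EGFP− against 782 and 1007 in the Il10-EGFP+ libraries, or 1556 and 1853 against 1239 and 1453 CPM. Both Il10-EGFP+ libraries lay below both Il10-EGFP− libraries, and the difference was not called (log2 fold change -0.34, standard error 0.12, adjusted p = 0.113). It was called with limma voom (adjusted p = 0.0347) and with the edgeR replicate block (adjusted p = 0.0117), while DESeq2 gave an adjusted p of 0.209. The log2 fold change ran from -0.46 without Il10-EGFP− replicate 1 to -0.21 without Il10-EGFP− replicate 2. The ratio of the 2 transcripts within a library separated the groups. Per 100 Hspa5 counts there were 20.07 and 19.92 Hsp90b1 counts in the Il10-EGFP− against 36.57 and 36.84 in the Il10-EGFP+ libraries, a 1.84-fold difference of the means. The libraries of a group lay close together, which with n = 2 does not measure the precision of the ratio.

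The other 8 chaperones had log2 fold changes between -0.09 and 0.26. Calr (calreticulin) had 342 and 458 counts in the Il10-EGFP− against 402 and 495 in the Il10-EGFP+ libraries, which overlap in CPM (log2 fold change 0.26, adjusted p = 0.402), and Canx (calnexin) had a log2 fold change of -0.07. The BiP cochaperones Dnajb11 and Dnajc3 had values of 0.21 and 0.13, and Manf, a BiP-binding protein, 0.08. Sdf2l1, which acts with the DNAJ proteins, had -0.02. Hyou1, the nucleotide exchange factor of BiP, had 15 to 17 counts in each library and a log2 fold change of 0.10 whose 95% interval ran from -0.78 to 0.98. Dnajb9, a target of XBP1, had 5, 2, 6 and 0 counts, and differences within its 95% interval, -2.21 to 2.03, were not detectable.

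**Figure D2:**
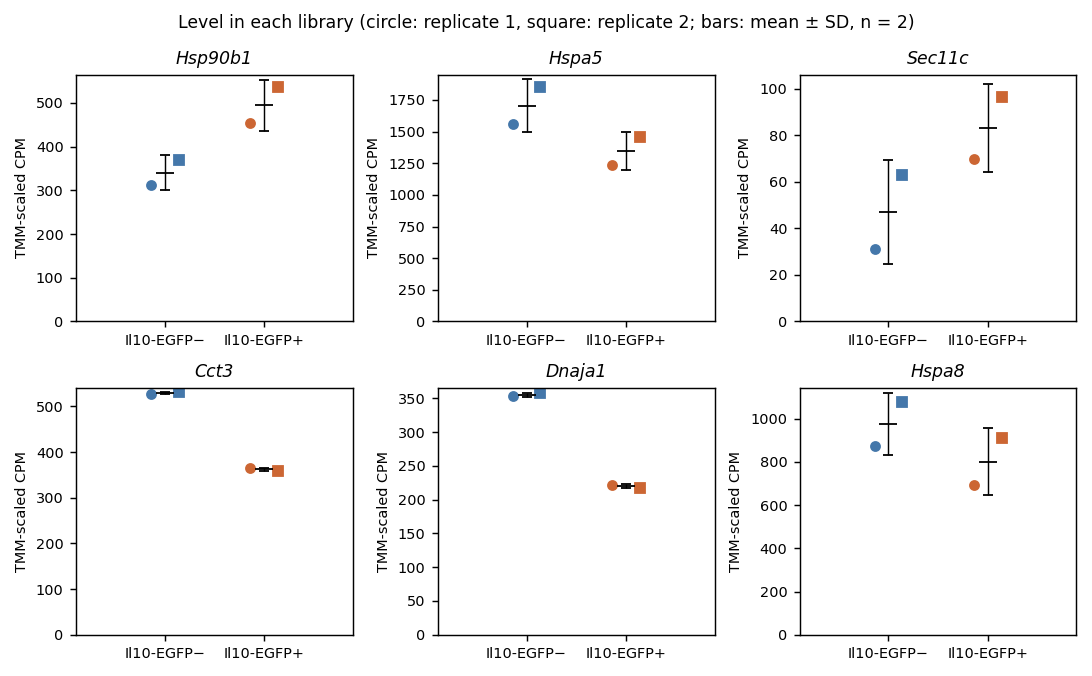
TMM-scaled CPM (y axis, from 0) of 6 members in the 2 Il10-EGFP− (blue) and 2 Il10-EGFP+ (orange) libraries, with circles for replicate 1, squares for replicate 2 and bars for mean ± SD. Hsp90b1 stands higher and Cct3 and Dnaja1 stand lower in Il10-EGFP+ libraries with no overlap, Hspa5 and Sec11c were separated but not called, and the groups overlap for Hspa8.

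Of the 6 disulfide isomerases and related ER enzymes, 0 were called by edgeR or by DESeq2 and 1 had an unadjusted p under 0.05. Their log2 fold changes had a median of -0.01. Pdia6, which is also a regulator of the stress sensors, was the most abundant and had the highest value. It had 324 and 390 counts in the Il10-EGFP− against 400 and 435 in the Il10-EGFP+ libraries, or 439.8 and 569.0 against 633.8 and 627.6 CPM. The groups do not overlap, and the log2 fold change of 0.32 (standard error 0.14) was not called (adjusted p = 0.224). Pdia4 had the lowest value, with 53, 36, 35 and 36 counts and a log2 fold change of -0.22 that became 0.03 without Il10-EGFP− replicate 1. Pdia3, the isomerase that works with calnexin and calreticulin, had 0.15, P4hb, the founding member of the family, -0.12, Creld2 -0.06 and the prolyl isomerase Ppib 0.04.

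The 4 genes of the stress response and ERAD were low in all libraries, and 0 were called by edgeR or by DESeq2, with 0 at an unadjusted p under 0.05. DESeq2 gave no adjusted p for Xbp1. Xbp1, which encodes the transcription factor that IRE1 activates by splicing, had 12 and 13 counts in the Il10-EGFP− against 21 and 14 in the Il10-EGFP+ libraries. Its CPM were separated, at 16.29 and 18.97 against 33.27 and 20.2, with a log2 fold change of 0.59 ± 0.46 (SE) and an adjusted p of 0.607. Counts at the transcript end do not tell spliced from unspliced Xbp1. Edem1, a lectin of ERAD, was the most abundant of the 4, with 49 and 56 against 50 and 46 counts and a log2 fold change of -0.03, which was above 0 when replicate 2 of either group was left out. Herpud1 and Sel1l, both parts of the HRD1 ubiquitin ligase complex, had 0.16 and 0.04.

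Of the 10 genes for translocation and signal peptide removal, 0 were called by edgeR or by DESeq2, which gave no adjusted p for Sec61g. An unadjusted p under 0.05 was seen for 2 of them. Sec11c, a catalytic subunit of signal peptidase, had 23 and 43 counts in the Il10-EGFP− against 44 and 67 in the Il10-EGFP+ libraries, or 31.22 and 62.74 against 69.72 and 96.66 CPM. The groups do not overlap, although the libraries of a group differ widely, and its log2 fold change of 0.84 (standard error 0.29) was the highest of all members and was not called (adjusted p = 0.0935). It was called without Il10-EGFP− replicate 2 (log2 fold change 1.42, adjusted p = 0.0122), without Il10-EGFP+ replicate 1 (1.05, adjusted p = 0.0474) and with limma voom (0.91, adjusted p = 0.048), while it was 0.41 without Il10-EGFP− replicate 1. Over the alternatives without a replicate block its adjusted p lay between 0.0122 and 0.662. Sec61b, the beta subunit of the channel, went the other way, with 58 and 42 against 25 and 34 counts and a log2 fold change of -0.66 ± 0.29 (SE) and an adjusted p of 0.246. The pore subunit Sec61a1 had a log2 fold change of 0.00 and the gamma subunit Sec61g, with 5 to 13 counts, 0.46. The end of the Sec61b transcript shares sequences of 50 bases with the pseudogene Gm10320, which had at most 1 count.

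Ssr3 was the most abundant gene of this role, at 287.8 and 274.3 CPM in the Il10-EGFP− against 282.0 and 252.5 CPM in Il10-EGFP+ libraries, which overlap (log2 fold change -0.07, 0.0047 without Il10-EGFP+ replicate 2). It belongs to the translocon-associated TRAP complex, whose other genes Ssr1, Ssr2 and Ssr4 had log2 fold changes of -0.03, 0.35 and 0.19. The signal peptidase genes Spcs1 and Spcs2 had 0.22 and -0.12. The summed level of the 10 genes was nearly level over the libraries, at 1262 and 1256 CPM in the Il10-EGFP− against 1331 and 1274 CPM in Il10-EGFP+ libraries.

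The 7 genes with an ER stress element did not move as a block. Their log2 fold changes were 0.54 for Hsp90b1, 0.32 for Pdia6, 0.26 for Calr, 0.13 for Dnajc3, -0.06 for Creld2, -0.07 for Canx and -0.34 for Hspa5. The median was 0.13, beside 0.01 over the 18 ER members whose window held no match. Summed over the 7 genes the level was 3576 and 4454 CPM in the Il10-EGFP− against 3825 and 4244 CPM in Il10-EGFP+ libraries, which overlap.

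Among the 20 cytosolic members, the 8 CCT subunits each had a log2 fold change below 0 under every scaling tried, between -0.55 and -0.12 with TMM scaling, with a median of -0.19. Cct6a was above 0 without Il10-EGFP− replicate 2, and Cct6a and Tcp1 were above 0 without Il10-EGFP+ replicate 1. Each ring of the complex holds the 8 subunits once, and only Cct3 was called in the edgeR test. Cct3, the gamma subunit, had 389 and 364 counts in the Il10-EGFP− against 230 and 249 in the Il10-EGFP+ libraries, or 528.0 and 531.1 against 364.4 and 359.2 CPM. The groups do not overlap, and the libraries of each lay within a few CPM of each other, which with n = 2 does not measure precision. The mean fell from 529.6 ± 2.18 to 361.8 ± 3.69 CPM (SD, n = 2 each), 0.683-fold. The log2 fold change was -0.55 with a standard error of 0.14 (adjusted p = 0.0136, edgeR).

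The Cct3 value stayed between -0.56 and -0.54 as each library was left out, but its adjusted p was then 0.0568 to 0.116, so the call needed all 4 libraries. DESeq2 gave an adjusted p of 0.0591, and the alternatives without a replicate block lay between 0.00643 and 0.116. The gene (ENSMUSG00000001416) lies on GRCm38 chr3:88297116-88321767, plus strand, with no exon shared with another gene, and the pseudogene Cct3-ps1, which shares 24 of the 1340 sequences of 50 bases at its transcript ends, had 0 counts.

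Cct8 was the most abundant subunit and had 692 and 665 counts in the Il10-EGFP− against 464 and 581 in the Il10-EGFP+ libraries, or 939.3 and 970.3 against 735.2 and 838.2 CPM. The groups do not overlap, and the log2 fold change of -0.28 was not called (adjusted p = 0.266). The end of its transcript overlaps that of Usp16 on the opposite strand, which had 92 to 114 counts. Cct7 had -0.31 (adjusted p = 0.215), and Cct2, nearest to 0, had 536, 485, 413 and 462 counts and -0.12 (adjusted p = 0.756). Tcp1, Cct4, Cct5 and Cct6a had -0.15, -0.23, -0.13 and -0.13. The groups were separated for 5 of the 8 subunits, all lower in Il10-EGFP+ libraries, where 22.3% of all genes tested were separated in this direction, and the summed level of 4581 and 4841 CPM in Il10-EGFP− against 3771 and 4214 CPM in Il10-EGFP+ libraries was separated as well.

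Cct3 also had a smaller share within the complex. It took 11.53% and 10.97% of the counts of the 8 subunits in the Il10-EGFP− against 9.66% and 8.52% in Il10-EGFP+ libraries. Of the other subunits, only Cct8 had shares that did not overlap, at 20.5% and 20.04% against 19.5% and 19.89%.

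**Figure D3:**
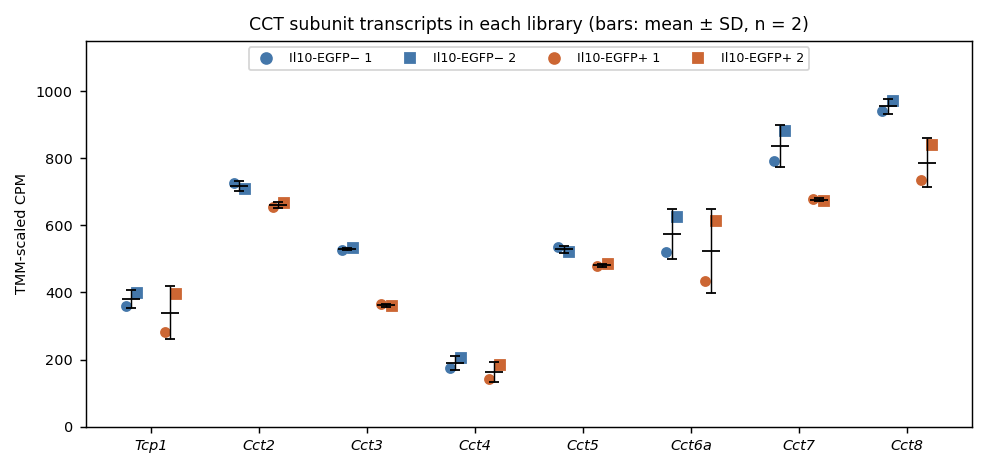
TMM-scaled CPM (y axis) of the 8 CCT subunits (x axis) in the 2 Il10-EGFP− (blue) and 2 Il10-EGFP+ (orange) libraries, with circles for replicate 1, squares for replicate 2 and bars for mean ± SD. The groups are separated for Cct2, Cct3, Cct5, Cct7 and Cct8, and for Tcp1, Cct4 and Cct6a they overlap.

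The 6 tested members of the cytosolic HSP70 system each had a log2 fold change below 0, and this held under every alternative in which they were fitted. Dnaja1, a DNAJ protein that delivers clients to HSP70, was called lower. It had 260 and 245 counts in the Il10-EGFP− against 140 and 151 in the Il10-EGFP+ libraries, or 352.9 and 357.5 against 221.8 and 217.8 CPM. As with Cct3, the groups do not overlap, and the libraries of a group were close together, which with n = 2 does not measure precision. The mean fell from 355.2 ± 3.22 to 219.8 ± 2.82 CPM (SD, n = 2 each), 0.619-fold, with a log2 fold change of -0.69 and a standard error of 0.16 (adjusted p = 0.00375, edgeR).

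Dnaja1 was the 1 member that DESeq2 also called (adjusted p = 0.0388), where DESeq2 called 115 of 4020 genes (2.86%), and it was called without each library in turn (adjusted p 0.0214 to 0.0456) and over all alternatives without a replicate block (0.00181 to 0.0456). With the replicate block in DESeq2 the call was lost (adjusted p = 0.154). The gene (ENSMUSG00000028410) lies on GRCm38 chr4:40722150-40737149, plus strand. Its exons share 608 bases, up to the transcript end, with Smu1 on the opposite strand, which had 121, 112, 86 and 85 counts and a log2 fold change of -0.34 (adjusted p = 0.414). The strand option of the counting is not stated, and without strand the reads of these genes cannot be told apart. The pseudogenes Gm15542, Gm7816 and Gm6335 share sequences with its transcript ends and had at most 1 count.

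Hspa8, the constitutive cytosolic HSP70 and the most abundant of its group, had 643 and 738 counts in the Il10-EGFP− against 436 and 632 in the Il10-EGFP+ libraries. In CPM these were 872.8 and 1077 against 690.9 and 911.8, which overlap, and the log2 fold change of -0.28 (standard error 0.14) was not called (adjusted p = 0.302). Pseudogenes share up to 618 of the 902 sequences of 50 bases at the Hspa8 transcript ends, and those in the count table had at most 3 counts in a library, but whether reads that map to more than 1 place were kept is not stated. Per 100 Hspa8 counts there were 40.44 and 33.2 Dnaja1 counts in the Il10-EGFP− against 32.11 and 23.89 in the Il10-EGFP+ libraries, a separation narrower than the spread within the groups.

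Hspa4, a nucleotide exchange factor of HSP70, had 344 and 353 against 265 and 335 counts and the value nearest to 0, a log2 fold change of -0.12 (adjusted p = 0.781). Its relative Hsph1 had -0.25, and Dnajb1, a heat-inducible DNAJ protein, had -0.28. The inducible Hspa1b, with 5 and 4 against 2 and 2 counts, had the lowest value, -1.02, with an interval from -3.11 to 1.06, and Hspa1a, whose coding sequence is nearly the same, was at 0. Hsf1 had 17 and 25 counts in the Il10-EGFP− against 12 and 15 in the Il10-EGFP+ libraries and a log2 fold change of -0.54 ± 0.43 (SE) and an adjusted p of 0.622. At these counts no difference in Hsf1 or Hspa1b was detectable.

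HSP90 and its cofactors had a median log2 fold change of -0.07. Of these 5 genes 0 were separated between the groups, 0 were called by edgeR or by DESeq2, and 0 had an unadjusted p under 0.05. Hsp90ab1, the constitutive HSP90, was the most abundant of all members, with 5728 and 5795 counts in the Il10-EGFP− against 4399 and 5815 in the Il10-EGFP+ libraries, or 7775 and 8455 against 6970 and 8389 CPM (log2 fold change -0.08, interval -0.30 to 0.14). The inducible Hsp90aa1 had 878 and 954 against 780 and 1130 counts and the highest value of the cytosolic members, 0.15 (interval -0.11 to 0.41). Both turned sign when 1 Il10-EGFP+ library was left out, to 0.05 for Hsp90ab1 without replicate 1 and to -0.06 for Hsp90aa1 without replicate 2. Hsp90aa1 also shares end sequences with the pseudogene Gm12346, which had 30 to 52 counts, so their reads could be split between them. Ahsa1, which activates the HSP90 ATPase, had 91, 70, 59 and 82 counts and the lowest value of the 5, -0.09, and it was above 0 when replicate 1 of either group was left out. Stip1, which links HSP70 to HSP90, had 0.01, and the kinase cochaperone Cdc37 -0.07.

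The HSP90 chaperones of ER and cytosol were also set side by side. Per 100 Hsp90ab1 counts there were 4.02 and 4.37 counts of the ER gene Hsp90b1 in the Il10-EGFP− against 6.50 and 6.38 in Il10-EGFP+ libraries, without overlap. The cytosolic Hsp90aa1, at 15.33 and 16.46 against 17.73 and 19.43 per 100 Hsp90ab1 counts, was likewise higher without overlap.

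**Figure D4:**
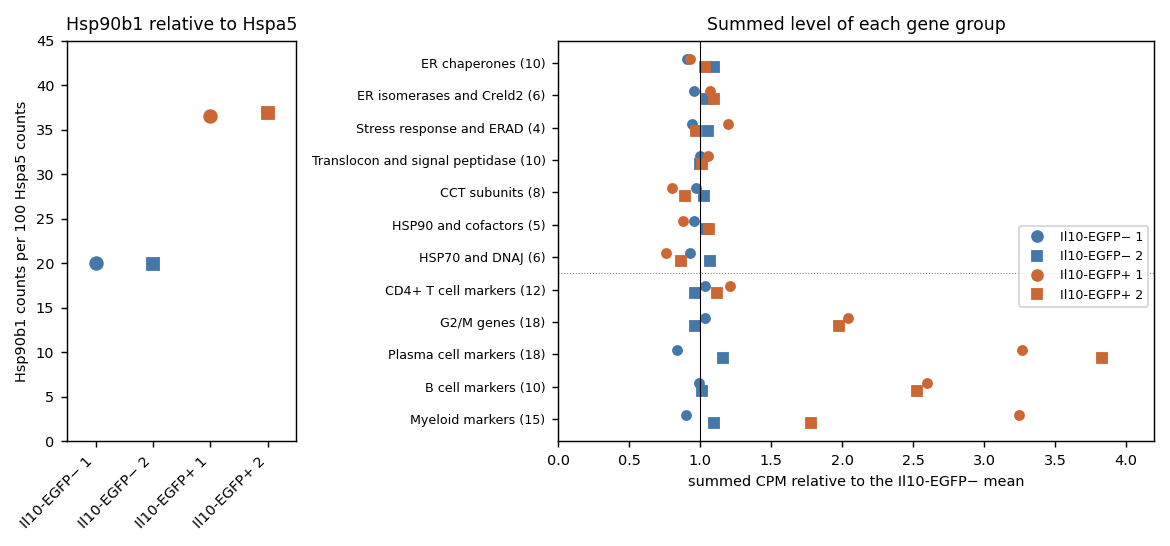
Left, Hsp90b1 counts per 100 Hspa5 counts (y axis, from 0) in each library, 20.07 and 19.92 in the Il10-EGFP− against 36.57 and 36.84 in the Il10-EGFP+ libraries. Right, the summed CPM of each role group and marker list divided by its Il10-EGFP− mean (x axis), with the chaperone groups nearer to 1 than the plasma cell, B cell, myeloid and G2/M lists in both Il10-EGFP+ libraries.

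Other genes of the same pathways were taken from lists of pathway members. Of 121 further ER symbols, some of them older names of a listed gene, 112 were in the count table, 94 were tested and 0 were called by edgeR or by DESeq2. DESeq2 gave some of them no adjusted p, among them Txndc5, Hspa13, Sdf2 and Ddit3, and so could not call these. In edgeR's test 8 had an unadjusted p under 0.05, beside 1485 of all 9608 genes tested, and the smallest adjusted p was 0.0802. The 94 genes were 28 of folding and quality control, 36 of the stress response and ERAD, and 30 of translocation and glycosylation, with median log2 fold changes of 0.14, -0.01 and -0.09. Of 76 further cytosolic symbols, 74 were in the count table and 62 were tested, of which 3 were called lower and 1 higher (6.45%, against 4.09% of all genes tested), with a median of -0.06. Pfdn2, a subunit of prefoldin, which hands actin and tubulin to CCT, had 428 and 437 counts in the Il10-EGFP− against 239 and 262 in the Il10-EGFP+ libraries (log2 fold change -0.69, standard error 0.14, adjusted p = 0.000957, edgeR). Hspbp1, a nucleotide exchange factor of HSP70, had 320 and 345 against 223 and 177 counts (-0.63, adjusted p = 0.00898), and Ppid, an HSP90 cochaperone, 297 and 362 against 201 and 227 counts (-0.53, adjusted p = 0.0304). Dnajc9, a DNAJ protein that also binds histones, was higher, with 180 and 158 against 228 and 236 counts (0.56, adjusted p = 0.0247). DESeq2 called Pfdn2 (adjusted p = 0.00665) and not the other 3.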

How the data were processed

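Messenger RNA was measured in 4 libraries, 2 each of sorted splenic Il10-EGFP− and Il10-EGFP+ T cells. The authors deposited read counts per gene, made with the BlueBee QuantSeq pipeline, STAR 2.5.2a and HTSeq 0.6.0 on GRCm38. The deposited rlog values are on a log2 scale and were made with DESeq2 after genes with fewer than 10 reads were removed. Unique molecular identifiers served, per the methods, to assess PCR duplicates and remove amplification bias. Whether the deposited counts are collapsed by them, the annotation release and the strand option are not given in the sources used here. The labels name the PureLink RNA Micro kit and the methods name Arcturus Picopure. The rlog values were recomputed from the counts to within 5.7e-14 for 9321 symbols. A symbol was lacking for 419 of the 47643 count rows, and 0 columns were left unused.

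Genes with at least 10 counts in total (9608, holding 99.34% to 99.45% of the counts) were tested with edgeR 4.0.16 (R 4.3.3, TMM, glmQLFit and glmQLFTest), Benjamini-Hochberg adjustment over all of them and a threshold of 0.05. Standard errors and 95% intervals were derived from the F statistic. DESeq2 1.42.0, limma 3.58.1, other filters and scalings, a replicate block and leaving out each library served as alternatives. The members and all lists were chosen with earlier results of these data known. Values in every library are given for called members, for the lowest and highest log2 fold change of each role and for its most abundant gene, and further ones were chosen after their values were seen. Other pathway genes are named where called, while only some of the called markers are named. Markers at or near 0 are named where they define a cell type. Coordinates and exon overlaps came from GENCODE M21, promoters from RefSeq, and transcript ends were compared over the last 500 bases. Read depth limits low genes. The edgeR p-values rest on the spread between 2 libraries a group combined with the spread estimated over other genes.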

Additional observations from a re-analysis of the deposited data

How the results depend on the processing

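The number of genes called, 393, was between 367 and 560 under other filters, scalings, limma voom, bias-adjusted deviances, the edgeR replicate block and without the 3 most abundant genes. It was 115 with DESeq2 (73 higher, 42 lower), 40 with the replicate block in DESeq2, 197 with limma on the rlog values, 177 at an adjusted p under 0.01 and 201 to 264 with a library left out, which has fewer samples and assumes that the lone library of a group varies like the pair of the other. ER members called (1 in the test of the report) were 0 with DESeq2, with its replicate block, with limma on the rlog values and at 0.01, and 3 (Hsp90b1, Sec11c, Hspa5) with limma voom and with the edgeR replicate block, and 0 to 3 with a library left out. Cytosolic members called (2 in that test) were 1 with DESeq2, at 0.01 and without each library (Dnaja1 in each case), and 0 with the replicate block in DESeq2. Apart from library number and the stricter threshold, the cause was not tested. No adjusted p came from DESeq2 for 5588 genes, 6 of them members, or for 7637 with the block.

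The methods speak of a replicate pair, and the test of the report used no pairing. Deviations of same-numbered libraries correlated at 0.0324 over 4965 genes. With 2 libraries a group this cannot show whether they were paired. With the edgeR replicate block 560 genes were called, and Hspa5 (-0.34, adjusted p = 0.0117) and Sec11c (0.84, adjusted p = 0.0441) joined Hsp90b1.

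Over 20 members and 15 alternatives, 262 of 299 log2 fold changes kept their direction and their side of the threshold, 10 kept their direction with no adjusted p from DESeq2, 7 became called, 12 lost the call and 8 turned direction, none of them called and each with a library left out. Without Il10-EGFP− replicate 1 these were Pdia4 (0.0303) and Ahsa1 (0.0564), without Il10-EGFP− replicate 2 Edem1 (0.1287), without Il10-EGFP+ replicate 1 Hsp90ab1 (0.0503) and Ahsa1 (0.0681), and without Il10-EGFP+ replicate 2 Edem1 (0.0993), Ssr3 (0.0047) and Hsp90aa1 (-0.0633). With a library left out, these genes ran from -0.4197 to 0.0303 (Pdia4), -0.1698 to 0.1287 (Edem1), -0.1525 to 0.0047 (Ssr3), -0.0633 to 0.3384 (Hsp90aa1), -0.2193 to 0.0503 (Hsp90ab1) and -0.2736 to 0.0681 (Ahsa1). Medians were taken only for library size scaling, DESeq2 and each library left out. The median of the ER members, 0.06, was 0.15 with Il10-EGFP− replicate 2 left out and 0.12 with Il10-EGFP+ replicate 2 left out. It was between 0.03 and 0.06 in the rest of these fits. The median of the cytosolic members ran from -0.29 to -0.11 over the same fits.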
